A study of Homo sapiens with 8 samples.

Results

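Antisense noncoding genes lie on the opposite strand of a sense gene and carry its symbol with the suffix AS1, AS2 or AS3. All genes of a count table of total RNA from human intestinal and colorectal cancer (CRC) cell lines were searched for such symbols. Of 1022 antisense symbols, 1000 had their sense gene in the table as well, and 124 of these were selected on measured values, namely 300 or more counts in at least 1 of the 8 libraries, out of 54261 genes in all. No symbol had to be left out as LINC or HOX (0 pairs). The 124 antisense genes had 123 sense genes, since DLGAP1-AS1 and DLGAP1-AS2 share DLGAP1. Just inside the threshold were STX18-AS1 (303 counts), TSPEAR-AS1 (307) and SGMS1-AS1 (313), and just outside it were LIFR-AS1 (299), SOCS2-AS1 (290) and ZC3H18-AS1 (289). Another 251 pairs had 0 antisense counts in every library.

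The normal group held NCM460 and HIEC6, labelled as normal human intestinal epithelial lines (n = 2), the CRC group held untreated DLD1, HCT116 and HCT8 (n = 3), and the CRC hypoxia group held the same 3 lines under hypoxia (n = 3). All cells were at passage 5, each library was 1 line, and neither the oxygen level nor the duration of hypoxia is given in the sources used here. Replicates of a group were thus different lines, and p-values without the line as a block of the fit rest on the spread between lines. With the line as a block, they rest on how far the hypoxia difference varies between the 3 lines. Values of the CRC lines in triplets are in the order DLD1, HCT116, HCT8. Library totals lay between 45519306 and 57374239 counts, so that 1 count corresponded to 0.0174 to 0.022 CPM (counts divided by the column total and multiplied by 1000000). The library labelled NCM460 correlated at 0.994 with HCT116 but at 0.924 with HIEC6 (Pearson r of log2(CPM + 1) across genes), so results that rest on it are given with and without it. HIEC6 had 0.176 CPM of the epithelial marker EPCAM and 3.03 CPM of CDH1 but 4290 CPM of KRT8 and 3725 CPM of KRT18. Its 11 epithelial markers summed to 8018.9 CPM, against 4551.3 to 14263.5 CPM in the other libraries, and its 9 mesenchymal markers to 1473.5 CPM, against 13.8 to 179.5 CPM. KRT8 and KRT18 made up nearly all of this epithelial sum, and KRT19 had 0.987 CPM. VIM (1223 CPM) made up most of the mesenchymal sum. ZEB1, ZEB2, CDH2, FN1 and COL1A1 were also highest in HIEC6. COL1A2, COL3A1 and SPARC were lower there than in NCM460 (0.458, 1.16 and 0.247 against 7.99, 3.99 and 2.72 CPM). Untreated and hypoxia CRC libraries share no sequencing run label, so that run and treatment cannot be told apart. As a check of the treatment, 12 of 16 hypoxia response genes rose and 0 fell when the line was a block of the fit (edgeR, Benjamini-Hochberg adjusted p under 0.05), with a median log2 fold change of 3.13 against 0.03 over all genes tested.

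An antisense RNA can share a promoter region with its sense gene, from which both genes are transcribed away from each other, or it can start inside or beyond the sense gene and run back over it. Transcripts of the divergent kind are often short-lived and sit next to active promoters, while overlapping transcripts can pair with the sense RNA. Well-known examples among the members are CDKN2B-AS1, also called ANRIL, at the locus of a cell cycle inhibitor, and OIP5-AS1, the human counterpart of cyrano. HIF1A-AS2, which lies at the end of the gene of the oxygen-regulated subunit of hypoxia-inducible factor 1, is known from hypoxic tumor cells.

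In GENCODE release 44 (GRCh37), 121 of the 124 pairs had both genes annotated, all on opposite strands. The exons of 79 pairs overlapped, 14 pairs overlapped only in introns and 28 pairs lay apart. In 83 pairs a start of the antisense gene lay within 1000 bases of a start of the sense gene, and 19 antisense genes now carry the suffix DT (divergent transcript), SLC2A1-AS1 among them. The overlap was mostly small, with a median of 7.7% of the antisense exon bases among the 79 pairs, and it reached 50% or more in 5 pairs (EML2-AS1, AGAP2-AS1, TTN-AS1, ZNF337-AS1 and EPB41L4A-AS1). How reads were assigned by strand is not given in the sources used here, so reads from overlapping exons of a pair cannot be told apart. By gene type, 116 members were lncRNAs and 2 were protein-coding, MMP24-AS1 (now MMP24OS) and NCBP2-AS2.

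The promoter windows of the genes on which the hypoxia results turn are shown first, because HIF-1 binds the hypoxia response element, whose core reads ACGTG, or with another base at its first position GCGTG (both strands were searched and overlapping matches counted). Sequences are from RefSeq (GRCh38.p14), 5′ to 3′ on the strand of the gene, with cores in capitals. The windows of HIF1A-AS2 (chr14:61749040-61749339, minus strand) and of the gene listed as LOC105370526, which RefSeq names HIF1A-AS3 (chr14:61751048-61751347, minus strand), run from 250 bases before to 50 bases after the start, and their starts lie 2008 bases apart. The window of SLC2A1-AS1 (chr1:42958869-42959098, plus strand) leaves out the stretch transcribed from SLC2A1, whose start lies 181 bases away in the opposite direction. For FGD5 (chr3:14818712-14818961, plus strand) and HIF1A (chr14:61695263-61695512, plus strand) only the 250 bases before the start are given.
HIF1A-AS2: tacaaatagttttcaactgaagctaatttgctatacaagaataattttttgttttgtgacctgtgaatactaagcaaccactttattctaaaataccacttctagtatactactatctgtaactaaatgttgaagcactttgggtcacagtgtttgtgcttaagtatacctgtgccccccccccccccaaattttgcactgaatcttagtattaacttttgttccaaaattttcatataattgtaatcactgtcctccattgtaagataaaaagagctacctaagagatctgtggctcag
LOC105370526 (HIF1A-AS3): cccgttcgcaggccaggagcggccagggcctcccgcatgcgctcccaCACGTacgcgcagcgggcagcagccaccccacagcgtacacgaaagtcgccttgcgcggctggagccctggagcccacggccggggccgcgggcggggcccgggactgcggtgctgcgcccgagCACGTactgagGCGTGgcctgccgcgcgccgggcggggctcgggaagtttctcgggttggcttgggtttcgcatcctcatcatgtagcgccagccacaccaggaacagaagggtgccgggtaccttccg
SLC2A1-AS1: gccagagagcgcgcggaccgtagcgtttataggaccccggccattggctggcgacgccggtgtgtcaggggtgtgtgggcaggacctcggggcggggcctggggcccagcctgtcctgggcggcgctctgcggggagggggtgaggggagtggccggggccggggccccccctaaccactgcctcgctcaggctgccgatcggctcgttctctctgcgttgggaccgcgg
FGD5: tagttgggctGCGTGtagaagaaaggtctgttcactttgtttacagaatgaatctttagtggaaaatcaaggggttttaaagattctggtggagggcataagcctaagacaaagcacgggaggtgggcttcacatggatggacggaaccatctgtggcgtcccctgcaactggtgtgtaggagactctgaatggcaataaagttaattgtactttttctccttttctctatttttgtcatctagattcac
HIF1A: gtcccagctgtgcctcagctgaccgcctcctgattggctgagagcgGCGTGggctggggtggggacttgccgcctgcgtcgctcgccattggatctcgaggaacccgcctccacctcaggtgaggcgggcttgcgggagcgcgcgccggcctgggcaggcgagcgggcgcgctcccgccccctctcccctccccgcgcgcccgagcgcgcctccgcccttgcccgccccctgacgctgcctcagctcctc
The HIF1A-AS2 window held 0 cores, was 34.7% G and C and contained 0 CpG, while the HIF1A-AS3 window held 3 cores, was 72.3% G and C and contained 36 CpG. The stretch of SLC2A1-AS1 printed here held 0 cores, and 2 lay in the part of its 300-base window that SLC2A1 transcribes. Of the 124 antisense members, 105 had a RefSeq window. At least 1 core was found in 75 of them (71.4%), in 60 of 109 sense windows (55.0%) and in 13213 of 27305 windows of all genes (48.4%). Antisense windows were also rich in G and C (median 68.3%, against 67.3% for sense genes and 58.3% for all genes) and in CpG (median 26, against 29 and 14), and both cores contain a CpG. Whether base composition bears on the shares of windows with a core was not tested. A match describes the letters and is not evidence of binding.

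The antisense members were mostly expressed below their sense genes. Per kilobase of annotated exon, the median level in the 5 untreated lines was 0.841 to 1.68 CPM per kb for the antisense genes and 4.47 to 5.57 CPM per kb for the sense genes (121 pairs). The antisense gene had the higher level per kb in 33 (HIEC6) to 37 (HCT116) of the 121 pairs. Only 19 antisense members reached 300 counts in all 8 libraries, 38 reached it in 1 library, 11 reached it only in HIEC6 and 19 only in hypoxia libraries.

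LRRC75A-AS1, the host of small nucleolar RNAs now named SNHG29, was the most abundant member. It had 740 CPM in NCM460 and 197 CPM in HIEC6, and 604, 1107 and 706 CPM in the CRC lines untreated against 423, 875 and 419 CPM under hypoxia. Its sense gene LRRC75A had 1.59 to 66.7 CPM over the same libraries. FGD5-AS1 was abundant in every line and had 66.8, 158, 87.9, 82.6 and 148 CPM in NCM460, HIEC6, DLD1, HCT116 and HCT8, while its sense gene FGD5, which encodes a guanine nucleotide exchange factor of CDC42, had at most 0.449 CPM in these lines. OIP5-AS1 had 48.4, 50.5, 42.9 and 42.1 CPM in NCM460, HIEC6, DLD1 and HCT116 and stood apart in HCT8 with 134 CPM. PAX8-AS1 had 25.2 to 53.8 CPM in 4 untreated lines and 0.67 CPM in HIEC6, where its sense gene PAX8, a developmental transcription factor, had 0.0353 CPM (2 counts). VPS9D1-AS1 (33.9 to 49.1 CPM), MMP24-AS1 (27.2 to 43.8 CPM) and BAIAP2-AS1 (6.75 to 31.2 CPM) completed the abundant members whose levels varied little or moderately between the untreated lines.

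The levels of many antisense genes set the lines apart. The range over the 5 untreated lines was at least 2 log2 units for 60 of 124 antisense members and for 36 of 123 sense genes, with medians of 1.97 and 1.3 log2 units on the log2(CPM + 0.1) scale, on which low counts add to the range. Antisense members were also selected on their highest library and sense genes were not, so the 2 ranges are not on equal terms. HCT8 held the highest level of 56 antisense members, HIEC6 of 29, HCT116 of 22, DLD1 of 9 and NCM460 of 8. For the 123 sense genes these numbers were 32, 35, 14, 23 and 19. The antisense numbers depend on the selection by highest library and have no share of all genes beside them, so nothing is read from them. Over the antisense members, NCM460 and HCT116 correlated at 0.946 and DLD1 and HCT8 at 0.876, whereas every other pair of untreated lines lay between 0.384 and 0.546. The 5 lines were therefore not 5 independent points, and correlations over them are given as descriptions.

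AFAP1-AS1, an overlapping transcript at the gene of an actin filament-associated protein, had the widest range. It had 443 CPM in DLD1 and 329 CPM in HCT8 but 0.264 CPM in NCM460, 0.617 in HIEC6 and 0.0766 in HCT116 (13, 35 and 4 counts). Its sense gene AFAP1 ran the other way, with 28.2 CPM in DLD1 and 51.6 in HCT8 against 66.3 in NCM460, 343 in HIEC6 and 73.9 in HCT116. The Pearson r of the pair over the 5 lines was -0.60, and -0.69 without NCM460. Exons of this pair share 42.2% of the antisense exon bases.

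Other pairs rose and fell together between lines. NNT-AS1 starts within 4 bases of NNT, which encodes the mitochondrial nicotinamide nucleotide transhydrogenase, and had 14, 8.67 and 8.41 CPM in HIEC6, DLD1 and HCT8 but 1 count each in NCM460 and HCT116. NNT itself had 158, 96.2 and 115 CPM in the first 3 of these lines and 16 and 2 counts in NCM460 and HCT116 (r = 0.9926, and 0.9985 without NCM460). Both genes of the pair were thus nearly silent in the same lines.
GATA6-AS1 has a start within 1000 bases of a start of GATA6, the gene of an endodermal transcription factor. It had 1.68 CPM in DLD1 and 3.08 CPM in HCT8 and 2 to 7 counts in the other untreated lines. GATA6 had 87.1 CPM in DLD1 and 127 CPM in HCT8 and 7.14 to 8.88 CPM in the other lines (r = 0.9928 with and 0.9975 without NCM460). NR2F1-AS1 had 15.9 CPM in HCT116, 9.29 in NCM460, 3.38 in DLD1, 2.35 in HIEC6 and 0 counts in HCT8, and the nuclear receptor gene NR2F1 followed the same order except that its level in HIEC6 (14.6 CPM) was slightly above that in DLD1 (12.8 CPM). CDKN2B-AS1 had 10.6 CPM in HIEC6, 2.7 in HCT116, 2.15 in NCM460 and 1 count each in DLD1 and HCT8, while CDKN2B, the gene of a cyclin-dependent kinase inhibitor, had 42, 11.9, 8.99, 1.33 and 0.589 CPM in the same order of lines (r = 0.99 with and without NCM460). PAN3-AS1 (1.04 to 6.46 CPM) and PAN3 (31 to 114 CPM) reached an r of 0.98. VIM-AS1 had 9.4 CPM in HIEC6 and at most 1.26 CPM in the other untreated lines. VIM, the mesenchymal intermediate filament gene, had 1223 CPM in HIEC6 and at most 8.62 CPM in the other untreated lines (r = 0.88, and 0.44 without HIEC6). CDKN2B-AS1 and VIM-AS1 reached the member threshold only in HIEC6, so their peaks in that line are descriptions. Without HIEC6 the r of the CDKN2B pair was 0.98.

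A smaller set of pairs ran in opposite directions. TP73-AS1 had 12.7 CPM in HIEC6 and 0 to 6 counts in the other untreated lines, whereas TP73, a member of the p53 family, had 1.59 CPM in HIEC6 and 17.8 to 55.2 CPM in the others (r = -0.90 with and without NCM460, resting on HIEC6). ZEB1-AS1 had 0.793 CPM in HIEC6 and 4.69 to 8.57 CPM in the others, while ZEB1, a transcription factor of epithelial-mesenchymal transition, had 16.8 CPM in HIEC6, 7.06 in HCT116 and 1.03 to 2.56 CPM in NCM460, DLD1 and HCT8. The r of -0.73 was 0.17 without HIEC6. SBF2-AS1 (r = -0.76) and FOXN3-AS1 (r = -0.71) were also highest in HIEC6 and ran against their sense genes. FOXN3-AS1 lost this without HIEC6 (r = -0.04). TP73-AS1 and FOXN3-AS1 reached the member threshold only in HIEC6, so their peaks in that line are descriptions. HIF1A-AS2 (r = -0.90) had at most 21 counts in any untreated line, so its r describes very few reads. The plot of levels in the untreated lines shows 8 of these pairs.

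**Figure D1:**
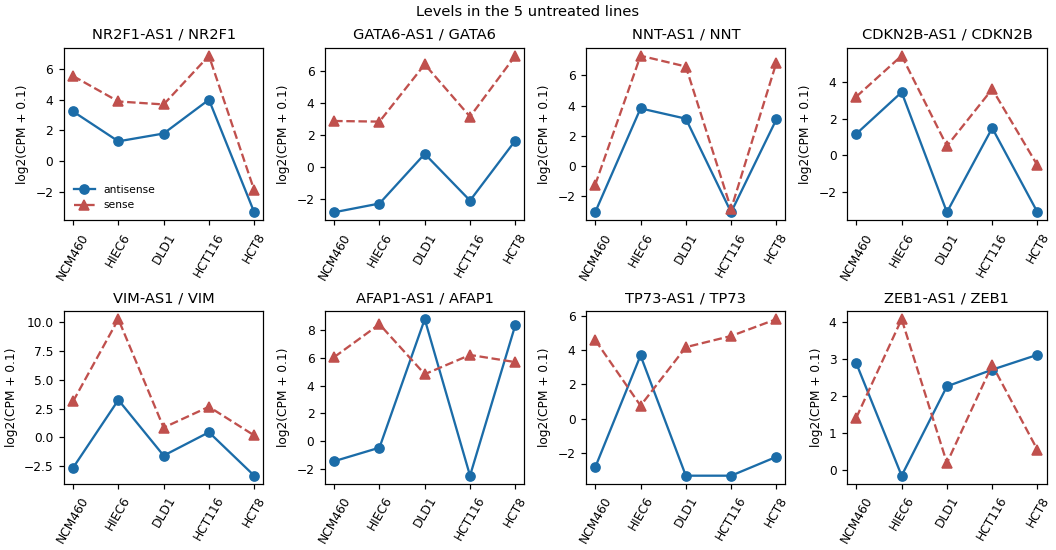
Levels of 8 antisense genes (circles) and their sense genes (triangles) as log2(CPM + 0.1) in the 5 untreated lines, 1 library each; the connecting lines only guide the eye. NR2F1, GATA6, NNT and CDKN2B follow their antisense genes, whereas AFAP1-AS1 is high in DLD1 and HCT8 (443 and 329 CPM) and TP73-AS1 in HIEC6 (12.7 CPM), where their sense genes are lowest.

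Over all pairs, antisense and sense varied together more often than against each other. The median Pearson r was 0.40 over the 120 pairs with at least 10 counts of both genes in an untreated library, with r above 0.5 in 54 pairs (45.0%) and below -0.5 in 16 pairs (13.3%). Without NCM460 the median was 0.41 and the numbers were 56 and 18 of 120. This was not particular to the members, as the 356 pairs under 300 counts that could be evaluated had a median r of 0.50. Unrelated genes were not paired for comparison, so whether partners vary together more than other genes was not tested. Pairs with starts within 1000 bases had a median r of 0.50 (82 pairs) and the other annotated pairs 0.16 (35 pairs). Split by both features, the 32 pairs with near starts and no exon overlap had a median r of 0.61, the 50 with near starts and overlapping exons 0.44, the 8 with distant starts and no overlap 0.64 and the 27 with distant starts and overlapping exons -0.17. Without NCM460 these medians were 0.60, 0.40, 0.58 and -0.10. Without HIEC6 they were 0.51, 0.74, 0.50 and 0.01, so the order by exon overlap among pairs with near starts turned around. The differences between arrangements were not tested, because pairs measured in the same 5 libraries are not replicates.

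**Figure D2:**
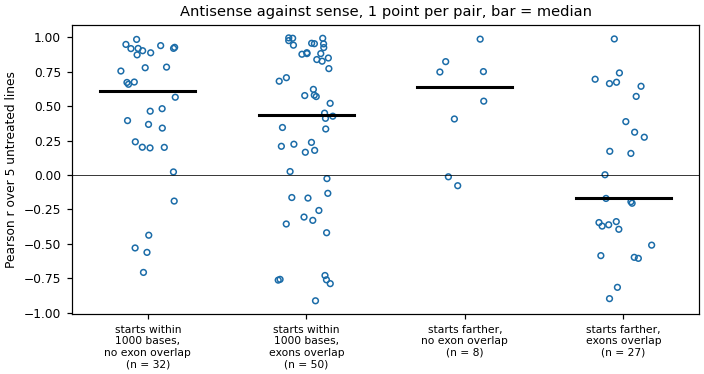
Pearson r between the antisense and the sense gene over the 5 untreated lines (vertical axis, no unit), 1 point per pair, by annotated arrangement, with the median as a bar. Medians are 0.61, 0.44, 0.64 and -0.17 from left to right, and every group but the third reaches below -0.5.

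CRC and normal lines were set against each other with edgeR's quasi-likelihood test. Of 122 antisense members tested 0 passed an adjusted p-value of 0.05, as did 0 of 119 sense genes and 0% of all 19964 genes tested. At an unadjusted p-value under 0.05 there were 4 antisense and 6 sense genes with edgeR. limma-trend called 0 of either, and DESeq2 called AFAP1-AS1 (higher) and the sense genes TTC28 and VIM (both lower in CRC), 0.882% of all genes with an adjusted p passing in that fit. AFAP1-AS1 had a log2 fold change of 8.93 (SE 3.38, edgeR adjusted p = 0.999), with HCT116 below both normal lines. Without regard to a test, 24 of 122 antisense members (19.7%) had a higher CPM in all 3 CRC lines than in both normal lines, against 13.2% of all genes tested, and 16 of 119 sense genes (13.4%) did so. Lower in all 3 CRC lines were 3 antisense members (2.5%) and 4 sense genes (3.4%), against 4.99% of all genes. Without NCM460, that is against HIEC6 alone, 58 antisense members (47.5%) were higher and 29 (23.8%) lower in all 3 CRC lines. The corresponding shares of all genes were 42.1% and 22.1%. Antisense members were selected on their highest library, and most libraries came from CRC lines, so the selection itself favours members high in CRC. SLC2A1-AS1 and GATA6-AS1, both among the 24, became members only through hypoxia libraries of CRC lines. The antisense shares are therefore not on equal terms with those of all genes, and nothing is read from their differences. Against both normal lines, only GATA6, LBX2, NOP14, RNASEH1 and WAC were higher together with their antisense gene, and HIF1A and VIM were among the 4 lower sense genes.

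Under hypoxia HIF1A-AS2 showed the largest difference of all antisense members, while its sense gene HIF1A differed by between -0.62 and 0.17 log2 units in the 3 lines. HIF1A-AS2 had 4 counts in NCM460 and 0 in HIEC6, and 9, 5 and 21 counts in the CRC lines untreated against 262, 1052 and 920 counts under hypoxia (0.176, 0.0957 and 0.399 CPM against 4.57, 19 and 20.2 CPM). Every hypoxia library was above every untreated one, and DLD1 under hypoxia lay below the other 2. HIF1A had 163, 158 and 112 CPM untreated and 159, 103 and 126 CPM under hypoxia, a log2 fold change of -0.03 (SE 0.18, edgeR with the line as block, adjusted p = 0.951). HIF1A-AS2 became a member only through hypoxia libraries, so its difference is a description.
2 neighbours on the same strand showed different values. The gene listed as LOC105370526 (HIF1A-AS3), whose span in RefSeq contains that of HIF1A-AS2, had 0, 2 and 2 counts untreated and 39, 248 and 224 counts under hypoxia. It reached the minimum of 10 counts for testing only through hypoxia libraries and was looked up because of HIF1A-AS2, so it is described without a test. HIF1A-AS1, at the start of HIF1A, had 10, 5 and 6 counts in the untreated CRC lines and 9, 0 and 4 under hypoxia. Whether reads of the overlapping spans of HIF1A-AS2 and HIF1A-AS3 were counted for both genes was not tested.

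The SLC2A1 pair was higher under hypoxia on both strands. SLC2A1-AS1 (chr1:43424720-43462485, plus strand, GRCh37) is transcribed away from SLC2A1, which encodes a glucose transporter known to be induced in hypoxic cells, and their exons do not overlap in GENCODE. SLC2A1-AS1 had 116, 82 and 165 counts untreated and 308, 302 and 844 under hypoxia (2.27, 1.57 and 3.13 against 5.37, 5.45 and 18.5 CPM), with 67 counts in NCM460 and 22 in HIEC6. It also reached 300 counts only under hypoxia, so this is a description. SLC2A1 had 616, 152 and 458 CPM in the untreated lines and 907, 1038 and 1509 CPM under hypoxia. Its log2 fold change was 1.81 (SE 0.43, edgeR with the line as block, adjusted p = 0.0941; higher in 3 of 3 lines) and 1.63 without the block. With the block it passed the threshold without DLD1 (2.43), without HCT116 (1.14) and with DESeq2 (1.84), but not without HCT8, where the log2 fold change was 1.86. The largest difference of SLC2A1 was in HCT116 (2.77 log2 units) and that of SLC2A1-AS1 in HCT8 (2.53 log2 units).

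FGD5 moved apart from FGD5-AS1. FGD5 had 23, 0 and 10 counts untreated and 249, 16 and 224 counts under hypoxia, and it rose by 4.16 log2 units (SE 0.64, edgeR with the line as block, adjusted p = 0.0312; higher in 3 of 3 lines). Without the block the log2 fold change of FGD5 was 3.89 and its adjusted p 0.9999. In HCT116 the rise ended at 0.289 CPM, far below the 4.34 and 4.92 CPM of DLD1 and HCT8. FGD5-AS1 had 87.9, 82.6 and 148 CPM untreated and 76.3, 41.7 and 143 CPM under hypoxia (log2 fold change -0.28, SE 0.19, adjusted p = 0.472). Annotated exons of the pair share 2.9% of the FGD5-AS1 exon bases.

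**Figure D3:**
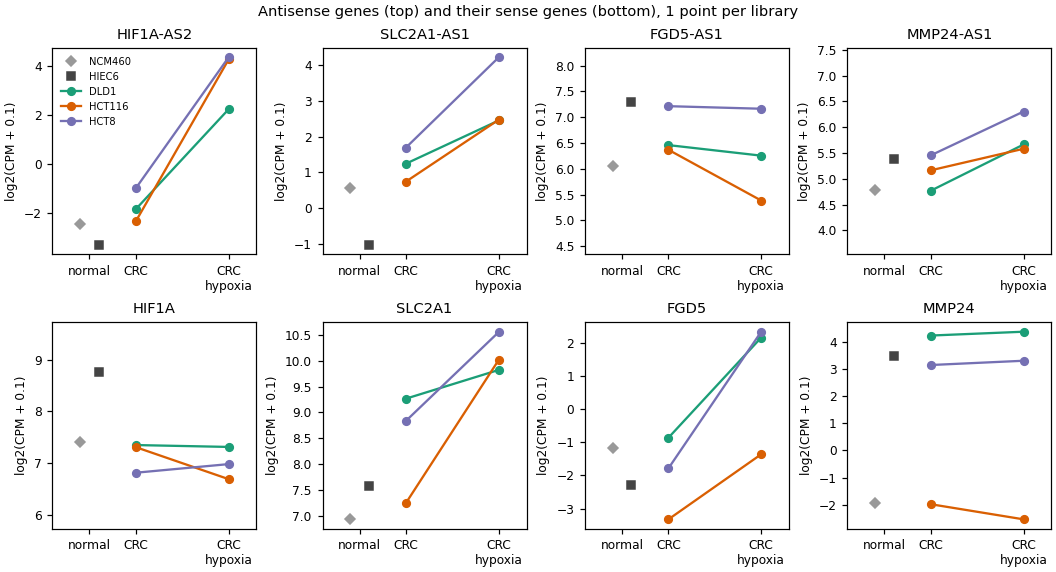
Levels of 4 antisense genes (top row) and their sense genes (bottom row) as log2(CPM + 0.1), 1 point per library: normal lines as a diamond and a square, CRC lines as circles joined from untreated to hypoxia. HIF1A-AS2 rises from at most 0.399 CPM to 4.57 CPM or more in all 3 lines, HIF1A stays between 103 and 163 CPM in the CRC libraries, both genes of the SLC2A1 pair are higher under hypoxia in each line, and FGD5 is higher without FGD5-AS1.

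Across the members, edgeR without the block called 0 of 122 antisense and 0 of 117 sense genes, and 0% of all 21045 genes tested. At an unadjusted p-value under 0.05 there were 4 antisense and 5 sense genes. limma-trend called 0 and DESeq2 called HIF1A-AS2 and KMT2E, against 0.349% of all genes with an adjusted p. With the line as a block 2 antisense members (HIF1A-AS2 and SLC2A1-AS1) and 1 sense gene (FGD5) passed, against 0.95% of all genes tested, and since both antisense genes were members only through hypoxia libraries nothing is read from that count. With both HCT8 libraries left out of the block fit, 4 libraries remained and 0 members and 0.0304% of all genes passed, while the log2 fold changes were 6.30 for HIF1A-AS2, 1.71 for SLC2A1-AS1 and 3.81 for FGD5 against 6.04, 2.01 and 4.16 with all 3 lines. Without DLD1, 2 antisense and 2 sense members passed, against 1.47% of all genes. Without HCT116, 6 antisense members (5.08%) passed (HIF1A-AS2, SLC2A1-AS1, MMP24-AS1 and GATA6-AS1 higher, OIP5-AS1 and AFAP1-AS1 lower) and 9 sense genes (7.76%), against 3.78% of all genes. GATA6-AS1, too, reached 300 counts only under hypoxia. DESeq2 with the block called 5 antisense members (4.1%) and 15 sense genes (12.8%), against 10.9% of all genes, and upper-quartile normalization with the block 2 and 1, against 1.02%. Without the block, the edgeR adjusted p of each member described below was 0.9999.

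Among the antisense members that did not depend on hypoxia for their membership, MMP24-AS1 had the largest mean difference upward. It had 27.2, 35.8 and 43.8 CPM untreated and 50.6, 47.8 and 78.9 CPM under hypoxia, so that each hypoxia library was above every untreated one (log2 fold change 0.86, SE 0.17, edgeR with the line as block, adjusted p = 0.0724; 0.85 without the block). Its sense gene MMP24, a matrix metalloproteinase, had 18.5, 0.153 and 8.7 CPM untreated and 20.5, 0.0722 and 9.71 CPM under hypoxia. PAX8-AS1 had 25.2, 47 and 30.9 CPM untreated and 29.1, 80.1 and 48.8 CPM under hypoxia (adjusted p = 0.16 in the same fit). EML2-AS1 and SH3BP5-AS1 were also higher in all 3 lines, by means of 0.57 and 0.38 log2 units, and TRIM52-AS1 and PIK3CD-AS2, which reached 300 counts only under hypoxia, by 0.68 and 0.48.
TMEM147-AS1 had the largest mean difference downward, and its sense gene TMEM147 was lower as well. TMEM147-AS1 has a start 37 bases from a start of TMEM147, and annotated exons of the pair overlap, so that their reads cannot be told apart there. TMEM147-AS1 had 11.2, 7.91 and 5.64 CPM untreated and 5.66, 1.62 and 2.04 CPM under hypoxia (log2 fold change -1.44, SE 0.33, edgeR with the line as block, adjusted p = 0.0873; -1.32 without it). TMEM147, which encodes a membrane protein of the endoplasmic reticulum, had 109, 95.6 and 78.2 CPM untreated and 78.7, 41.4 and 37.9 CPM under hypoxia (log2 fold change -0.77, SE 0.19, adjusted p = 0.0989, and -0.72 without it). VPS9D1-AS1 had 33.9, 42.6 and 35.9 CPM untreated and 26.6, 13.5 and 14.8 CPM under hypoxia (adjusted p = 0.111), while VPS9D1 had 5.15, 6.49 and 6.67 against 6.73, 6.25 and 13.7 CPM. DESeq2 with the block called MMP24-AS1, TMEM147-AS1 and VPS9D1-AS1. ATP6V0E2-AS1, SPATA3-AS1, PRKCQ-AS1, SLFNL1-AS1, TMEM9B-AS1 and PPP1R26-AS1 were lower in all 3 lines, with mean differences of -1.02 to -1.41 log2 units, and SPATA3 had 0 counts in every library.
Scaled by the column total, OIP5-AS1 was lower by nearly the same amount in each line. It had 42.9, 42.1 and 134 CPM untreated and 26.4, 25.5 and 79.1 CPM under hypoxia in DLD1, HCT116 and HCT8, differences of -0.70, -0.72 and -0.76 log2 units (log2 fold change -0.60, SE 0.18, edgeR with the line as block, adjusted p = 0.146, and -0.65 without it). The likeness of these 3 differences depends on the scaling, since TMM moved the HCT116 median of all genes from -0.33 to 0.01. OIP5, a centromere gene whose annotated exons overlap those of OIP5-AS1, was also lower in the 3 lines (21.1, 12.1 and 25.7 against 16.9, 3.5 and 15.6 CPM).

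Of a list of 34 antisense genes with known roles, chosen with earlier results of these data known, 18 were members, and 2 of these (HIF1A-AS2 and SLC2A1-AS1) passed in the block fit. In that fit 0.95% of all genes tested passed. Both genes were members only through hypoxia libraries, so nothing is read from this count. TMPO-AS1 had 8.26, 6.7 and 10.7 CPM untreated and 13, 1.55 and 9.6 CPM under hypoxia, higher in DLD1 and lower in HCT116, a difference between lines that was not tested. DICER1-AS1 (1.78, 3.02 and 3.89 against 2.32, 2.89 and 9.42 CPM) and GAS6-AS2 (0.742, 1.23 and 2.15 against 0.924, 1.03 and 7.69 CPM) were highest in HCT8 under hypoxia. DICER1-AS1 and GAS6-AS2 reached the member threshold only in that library, so their peaks there are descriptions. PCBP1-AS1 (5.17, 4.12 and 6.76 against 5.96, 4.95 and 7.4 CPM), FOXD2-AS1 (2.69, 7.85 and 6.67 against 2.37, 3.07 and 6.61 CPM), MCM3AP-AS1 (4.2, 2.85 and 10.9 against 4.39, 1.77 and 10.3 CPM), MAPKAPK5-AS1 (9.65, 19.2 and 10.9 against 7.81, 19 and 16.1 CPM) and MAFG-AS1 (1.03, 9.78 and 5.26 against 2.13, 3.07 and 4.15 CPM) did not pass in any hypoxia fit.

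The antisense members were lower in HCT116 under hypoxia and not in DLD1 or HCT8. The median log2 difference between hypoxia and untreated was 0.04, -0.69 and 0.14 in the 3 lines (118, 121 and 117 members with at least 10 counts), against 0.00, -0.33 and 0.01 over all genes. Scaling by TMM raised the HCT116 median of all genes to 0.01, a shift of over 0.1 log2 units, and left the antisense members at -0.34 and the sense genes at 0.04. A 2-fold or larger decrease was seen for 41.3% of the antisense members in HCT116 against 23.2% of all genes, and for 26.4% against 14.9% with TMM. Antisense members were selected on their highest library, mostly an untreated one, and all genes were not. These shares and medians are therefore not on equal terms, and their differences were not tested. The 299 antisense genes of pairs under 300 counts had a median of -0.52 in this line, and -0.26 with TMM. HCT116 and DLD1 under hypoxia were among the 3 libraries with a second run label. The part of the run in these differences was not tested, because run and treatment cannot be told apart.

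**Figure D4:**
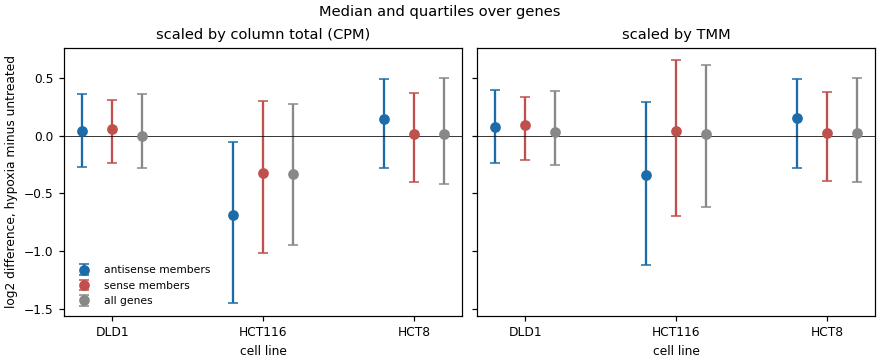
Median (points) and quartiles (bars) of the log2 difference between hypoxia and untreated over antisense members, sense members and all genes in each line, scaled by the column total (left) or by TMM (right). The antisense members of HCT116 lie lowest in both panels (-0.69 and -0.34), and the other lines lie near 0. Antisense members were selected on their highest library, so they are not on equal terms with the other genes.

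Antisense and sense genes moved in the same direction in 58 of 113 pairs in DLD1 (51.3%), 79 of 115 in HCT116 (68.7%) and 65 of 113 in HCT8 (57.5%). The higher share in HCT116 followed the scaling: 65 of the 79 pairs were lower on both strands, and with TMM the share was 54.8%. Large changes on both strands were rare. In DLD1 0 pairs changed 2-fold or more on both strands. In HCT116 2 pairs rose at least 2-fold on both (SLC2A1-AS1, and UPK1A-AS1 with 54 counts untreated and 443 under hypoxia), 14 fell on both and 5 went in opposite directions. In HCT8 1 pair rose on both, SLC2A1-AS1, 1 fell on both and 3 went in opposite directions. SLC2A1-AS1 and UPK1A-AS1 were members only through hypoxia libraries, and among the pairs whose antisense gene reached 300 counts without hypoxia 0 rose 2-fold on both strands in any line. The Pearson r of the differences across pairs was 0.055, 0.179 and 0.095 in DLD1, HCT116 and HCT8, where pairs share the same libraries and are not replicates. It was 0.066, 0.030 and 0.092 among pairs whose antisense gene reached 300 counts without hypoxia. Pairs with starts within 1000 bases moved the same way in 58.0%, 67.5% and 60.8% of cases and other annotated pairs in 37.9%, 75.0% and 48.4%, so the order of the 2 arrangements was not the same in every line.

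**Figure D5:**
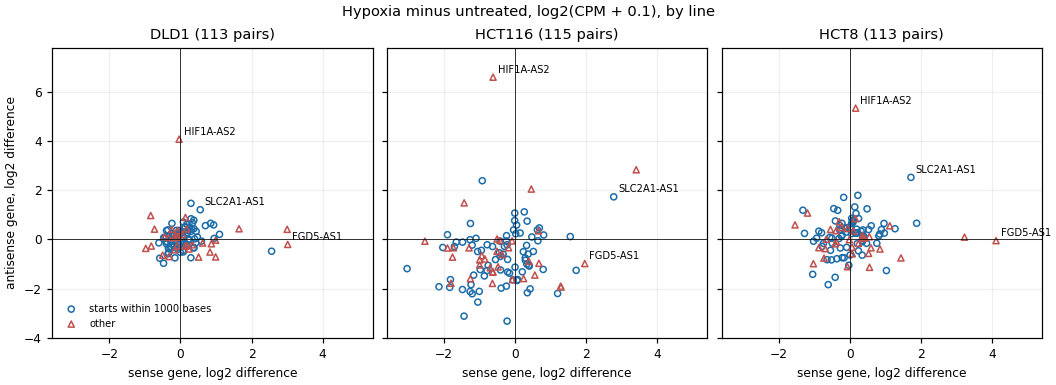
Log2 difference between hypoxia and untreated, log2(CPM + 0.1), of the antisense gene (vertical axis) against its sense gene (horizontal axis) in each CRC line, 1 point per pair, circles for starts within 1000 bases and triangles for other pairs. Points scatter around 0 in DLD1 and HCT8 and lie mostly below 0 in HCT116, and SLC2A1-AS1 is the labelled pair that lies up on both axes in every line.

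Few members kept 1 direction in all 3 lines. Higher in all 3 were 14 of 122 antisense members (11.5%) and 23 of 117 sense genes (19.7%), against 16.2% of all genes tested, and lower in all 3 were 26 (21.3%) and 33 (28.2%), against 26.4% of all genes. Of the 103 antisense members that reached 300 counts without hypoxia, 8 (7.8%) were higher and 26 (25.2%) lower in all 3. With TMM the shares of all antisense members tested were 22.1% higher and 16.4% lower, against 22.3% and 21.3% of all genes, so they were not above the background in either direction. Of 116 pairs with both genes tested, both were higher in all 3 lines in 4 (SLC2A1, KMT2E, PIK3CD and ARHGAP5 with their antisense genes) and both lower in 9, and 4 pairs were opposed. Of the first 4, SLC2A1-AS1, PIK3CD-AS2 and ARHGAP5-AS1 were members only through hypoxia libraries, so that KMT2E-AS1 alone is left without them. TMM kept all 4 of the first kind among 11 such pairs, and 7 of the 9 lower ones, leaving out ATP6V0E2-AS1 and DHRS4-AS1.
KMT2E, which encodes a chromatin regulator, had 47.1, 42.8 and 51.5 CPM untreated and 76.6, 59.4 and 101 CPM under hypoxia (log2 fold change 0.85, SE 0.17, edgeR with the line as block, adjusted p = 0.0724, and 0.85 without it). KMT2E-AS1, whose start lies 65 bases away and whose annotated exons overlap those of KMT2E, had 13, 9.84 and 18.6 against 19.3, 10.5 and 22.3 CPM (log2 fold change 0.44, SE 0.21, adjusted p = 0.317 in the same fit). PIK3CD, the gene of a catalytic subunit of phosphoinositide 3-kinase, had 2.38, 13.8 and 12.1 against 4.37, 21.3 and 22.5 CPM (log2 fold change 0.94, SE 0.22, adjusted p = 0.0944, and 0.95 without the block), and PIK3CD-AS2 had 0.273, 5.59 and 5.55 against 0.488, 7.35 and 7.36 CPM. The opposed pairs were FGD5, FOXN3 and SVIL, higher with a lower antisense gene, and SH3BP5, lower with a higher one. With TMM the FOXN3 pair left this class.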

How the data were processed

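Total RNA of the 8 libraries was depleted of ribosomal RNA and sequenced by the authors. The deposited values are raw counts per gene, without normalization. The study's methods name GRCh37.p13 as the reference, while the submitters' processing notes list HISAT2 2.0.4 and GRCh38. The counting program, its strand setting and the treatment of reads with several matches are not given in the sources used here, and 0 columns were left aside. Groups came from the sample labels.

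CPM used the column totals. Genes that reached 10 counts in 2 or more of the fitted libraries were tested with edgeR 4.0.16 (glmQLFit and glmQLFTest, TMM, Benjamini-Hochberg adjustment over all genes tested, threshold 0.05) in R 4.3.3, on the 5 untreated libraries for CRC against normal and on the 6 CRC libraries for hypoxia. The SE is the log2 fold change over the root of the F statistic. Replicate numbers are the cell line in the hypoxia comparison, so they pair the samples. After subtraction of the group means, both libraries of a line correlated at 0.82 to 0.857, and values with the line as block are printed, with unblocked log2 fold changes beside the main ones. Between CRC and normal lines the numbers join different lines and pair nothing.

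Co-movement was described on log2(CPM + 0.1), for pairs with at least 10 counts of both genes, since pairs are not replicates. Genes at a count of 0 to 3 are near the floor of 3 counts (0.0523 to 0.0659 CPM, counting error only). Gene positions came from GENCODE release 44 lifted to GRCh37, with 99 members matched by symbol, 23 through an older symbol and 2 unmatched (HIF1A-AS2 and MAFG-AS1), and SVIL-AS1 had no usable position. The files hold no coordinates. Promoter sequences came from RefSeq (GRCh38.p14). Named genes are those past the threshold, the 8 antisense members per direction with the largest mean difference of 1 sign in all 3 lines, the 5 pairs with the highest and the 5 with the lowest r among antisense genes ranging over at least 2 log2 units, the 8 with the highest CPM, the 6 with the widest range, those nearest the threshold and a list of known roles. Other members are named where a count of few is given, and were chosen after their values were seen. The members, lists and rules were chosen with earlier results of these data known. Alternatives were DESeq2 1.42.0, limma-trend (limma 3.58.1), upper-quartile normalization, other filters, all 8 libraries in 1 fit, the block, each library left out, TMM-scaled CPM, a pseudocount of 1, member thresholds of 100 and 1000 counts, and pairs without exon overlap. Blocked fits by DESeq2, under upper-quartile normalization or lacking 1 line were added after seeing the data. Only the edgeR hypoxia fit with the line as block was tried on simulated counts, in which each changed gene had the same fold change in every line. The values of 1 member are not reported here.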

Additional observations from a re-analysis of the deposited data

Results flagged for a closer look

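Among the genes reported here, 4 changed by at least 1 log2 unit upward in 1 line and downward in another under hypoxia, with at least 30 counts in the higher library of each line. AFAP1-AS1 differed by 2.05 log2 units in HCT116, where it rose from 4 to 35 counts, and by -1.14 in HCT8, where it had 17332 and 6812 counts. NOP14-AS1 differed by 1.07 in HCT8 and -1.33 in HCT116. AGAP2 differed by 1.13 in HCT8 and -1.29 in HCT116. VIM differed by 2.56 in DLD1 (87 and 604 counts) and -1.82 in HCT8 (54 and 10 counts). With 1 library per line and condition these differences between lines were not tested. No group held 4 or more samples, so single libraries were not tested as outliers.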

How the results depend on the processing

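DESeq2 with its own size factors called 1 antisense and 2 sense members for CRC against normal, and 1 and 1 for hypoxia, where edgeR called 0. With the replicate block (line as block) edgeR called 2 antisense and 1 sense member, and the same numbers with upper-quartile normalization. With the block and both DLD1 libraries left out it called 2 and 2, without HCT116 6 and 9, and without HCT8 0 and 0. DESeq2 with the block called 5 and 15, against 10.9% of all genes. The other alternatives, among them each library left out (0 to 0 calls), called 0 members in either comparison. The block changed no call of CRC against normal. The share of pairs moving the same way in HCT116 was 54.8% with TMM-scaled CPM instead of 68.7%. The share of pairs with r above 0.5 over the untreated lines was 33.3% at a threshold of 1000 counts and 55.0% for pairs without exon overlap instead of 45.0%, and 44.2% to 51.3% with 1 line left out. Antisense members higher in all 3 lines made up 22.1% with TMM-scaled CPM instead of 11.5%, and 12.3% to 40.2% with 1 line left out, 40.2% being without HCT116. Lower members made up 25.4% to 37.7% with 1 line left out instead of 21.3%, since fewer lines must share the sign. In the fit without the block, where leaving out 1 library breaks the pairing of the lines, the log2 fold change of OIP5-AS1 lay between -1.19 and 0.04, the latter without untreated HCT8. In the block fit with both libraries of a line left out it was -0.51 to -0.73. For these shares by line, leaving out a library gives no value. With 1 library per line and condition, small differences of single members were not detectable, and members near the floor rest on few counts.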
